A study of Caenorhabditis elegans with 12 samples.

Results

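The cytochrome P450 genes of *C. elegans* were taken as every gene whose WormBase symbol begins with *cyp-* and a number, which gave 74 of the 46904 genes in the count tables. They fall into 25 subfamilies by their symbols, among them 11 genes each of 13A and 33C, 8 of 34A and 5 each of 14A, 25A and 35A. P450 enzymes that carry another kind of symbol, such as *daf-9*, were not members. Of the 74 genes, 60 passed the filter on low counts and were tested among 15004 genes, and the other 14 were not tested. Gene spans ranged from 850 to 6072 bases with a median of 2261.5, and the annotated exons numbered between 4 and 11 per gene.

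Cytochrome P450 proteins are haem-containing monooxygenases that insert 1 oxygen atom from O2 into a lipid, steroid or foreign compound and take their electrons from NADPH through a partner reductase. In worms several of these enzymes make signalling lipids from polyunsaturated fatty acids, others act on steroid hormones or on lipids of the eggshell, and many, above all in the 35A group, are induced in the intestine by drugs and other xenobiotics. Both mutations studied here act in mitochondrial redox systems, since *gsr-1* encodes glutathione reductase and *trxr-2* the mitochondrial thioredoxin reductase.

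RNA-seq of polyadenylated RNA from whole young adults was available for 4 strains with 3 libraries each. The *gsr-1a trxr-2* double mutants carried both alleles described next. The *gsr-1a* single mutants carried *syb266* on chromosome III, a CRISPR-Cas9 deletion of the first exon of *gsr-1* that removes the mitochondrial isoform GSR-1a and leaves the cytosolic GSR-1b. The *trxr-2* single mutants carried *tm2047*, also on chromosome III and regarded in the study as a null allele, and the wild-type controls were N2. Both are mutations of the whole animal, and each genotype is represented by 1 strain.

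Library totals ranged from 12114187 to 19688212 assigned read pairs. Counts of *trxr-2* summed to 2 over the 3 double-mutant libraries, 2 over the 3 *trxr-2* libraries, 583 over those of *gsr-1a* and 706 over those of wild type. Counts of *gsr-1* cover the whole gene and cannot check *syb266*, with 251.2 to 265.1 CPM (read pairs scaled to a fixed library size) in double mutants and 253.6 to 341.7 CPM in wild type. The share of yolk genes (*vit*) in the counts was 1.79% in replicate 1 of *trxr-2*, whose replicates 2 and 3 reached 6.78% and 5.36%. It was only 0.342% in replicate 1 of wild type, where replicates 2 and 3 reached 4.73% and 4.51%. These 2 libraries stand apart, so the main counts are also given without them. All CPM values were scaled by TMM, the trimmed-mean method of edgeR, and all adjusted p-values come from edgeR's quasi-likelihood test over 15004 genes, where a gene is called at an adjusted p under 0.05. Errors after ± are SDs over 3 libraries for levels and SEs of the fit for log2 differences.

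P450 genes differed between double mutants and wild-type controls in both directions, and no member was called in either single mutant. Of the 60 tested members, 9 were higher in double mutants (15%, against 12.5% of all tested genes) and 8 were lower (13.3%, against 6.3%). The genes that rose were *cyp-14A4*, *cyp-33C8*, *cyp-13A12*, *cyp-13A8*, *cyp-32B1*, *cyp-14A1*, *cyp-33C9*, *cyp-33E2* and *cyp-33C4*, by 1.96-fold to 42.3-fold. Of these, *cyp-14A4* passed the filter on low counts only through its level in double mutants. Those that fell were *cyp-25A1*, *cyp-13A4*, *cyp-13B1*, *cyp-35A5*, *cyp-35C1*, *cyp-13B2*, *cyp-29A2* and *cyp-31A5*, by 1.32-fold to 3.47-fold. The median log2 fold change was -0.06 over the members and 0.03 over all tested genes, whereas the median size of the change regardless of sign was 0.59 over the members and 0.33 over all tested genes. Members whose 3 double-mutant libraries did not overlap the 3 wild-type libraries numbered 13 on the higher side (21.7%, against 23.9% of all tested genes) and 15 on the lower side (25%, against 21.6%). RNA came from whole worms, so fewer cells of a type and less RNA per cell cannot be told apart for any of these genes. Without wild-type replicate 1 there were 8 higher and 6 lower members, and without all 4 libraries numbered 1 there were 11 and 8. Leaving out wild-type replicate 2 or 3 left 5 members higher, and leaving out double-mutant replicate 1 or 3 left 5 lower.

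**Figure D1:**
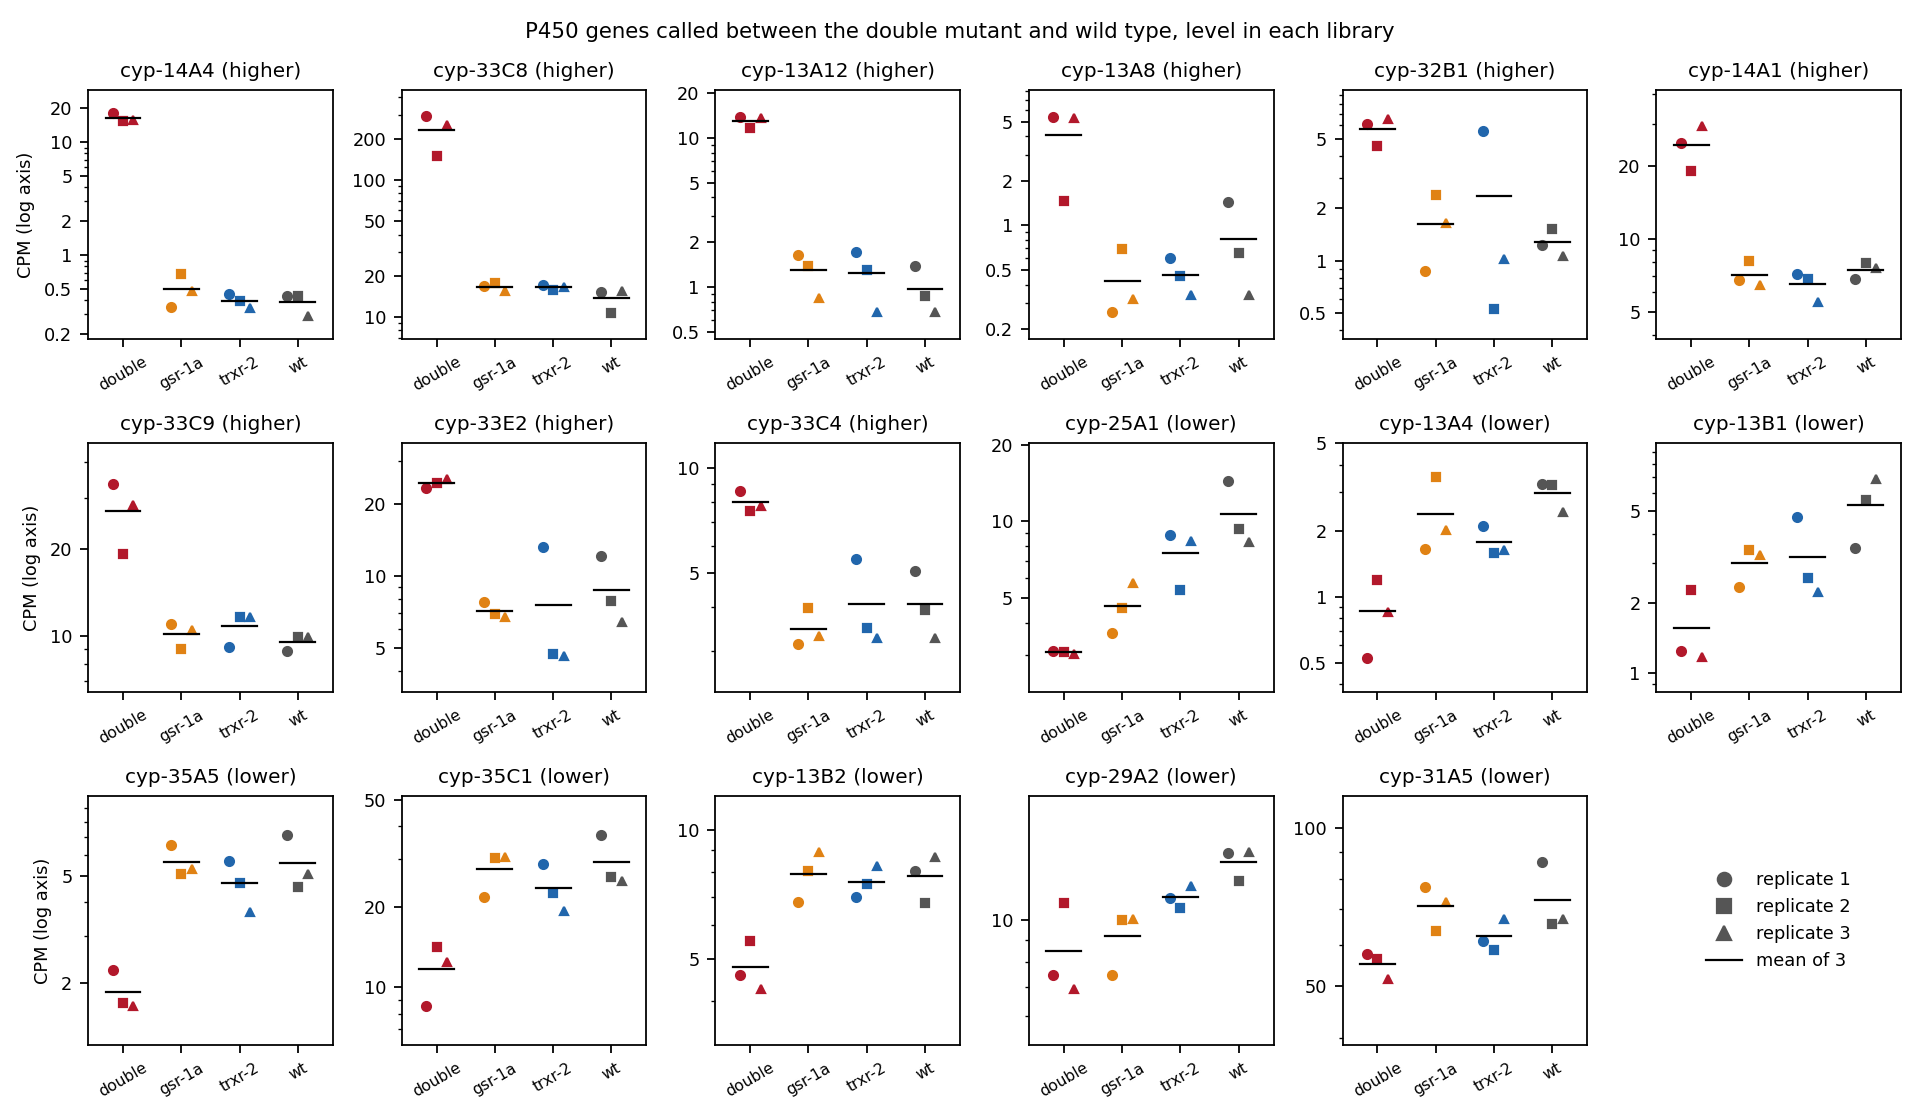
Level of each called P450 gene in every library, in CPM on a log axis, with the double mutants at the left, then *gsr-1a*, *trxr-2* and wild type. Points are libraries, marked by replicate number, and the bar is the mean of 3. For *cyp-14A4*, *cyp-33C8*, *cyp-13A12* and *cyp-14A1* the 3 double-mutant libraries sit far above all 9 others, while *cyp-25A1* is at 3.02 to 3.09 CPM in double mutants and spreads from 8.28 to 14.4 CPM in wild type.

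Of the 14A subfamily, 2 of 5 genes were higher in double mutants (12.5% of all tested genes were) and the other 3 were not called. *cyp-14A4*, at position 13282096 to 13284204 of chromosome X (WBcel235), had 18.2, 15.5 and 15.8 CPM in the double-mutant libraries. Its values were 0.348, 0.690 and 0.479 CPM in *gsr-1a*, 0.451, 0.394 and 0.341 CPM in *trxr-2*, and 0.435, 0.436 and 0.292 CPM in wild type. The gene was thus near 16 CPM in the double mutants and below 1 CPM in all other libraries. Its log2 fold change of 5.40 ± 0.26 (SE, adjusted p = 5.7e-07), or 42.3-fold, was the largest rise among the members. *cyp-14A4* passed the filter only through its level in double mutants, and its span shares 72 bases with a tRNA gene on the same strand, where overlapping read pairs were not counted. *cyp-14A1*, in the same neighbourhood at 13265041 to 13267338, was expressed in every strain. It had 24.9, 19.2 and 29.2 CPM in double mutants, 6.79, 8.07 and 6.44 CPM in *gsr-1a*, 7.14, 6.83 and 5.46 CPM in *trxr-2*, and 6.82, 7.95 and 7.55 CPM in wild type. All 3 double-mutant libraries lay above the other 9, and the log2 fold change was 1.71 ± 0.19 (adjusted p = 0.0003). *cyp-14A2*, *cyp-14A3* and *cyp-14A5* had log2 fold changes of 0.15, -0.41 and -0.13, with adjusted p-values of 0.743, 0.692 and 0.779.

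Genes of family 33 gave the highest P450 transcript level of the double mutants. *cyp-33C8*, which lies alone at 3800782 to 3803531 of chromosome V, had 294.6, 150.0 and 249.7 CPM in double mutants, 16.7, 17.9 and 15.4 CPM in *gsr-1a*, 17.1, 15.7 and 16.7 CPM in *trxr-2*, and 15.3, 10.7 and 15.4 CPM in wild type. The double-mutant libraries did not approach the others, although replicate 2 was well below the other two. The log2 fold change was 4.07 ± 0.24 (16.8-fold, adjusted p = 3.0e-06). Per kilobase of exon its level was 138.8 CPM in double mutants, the first in rank among the 60 tested members, and 8.28 CPM in wild type, where it ranked 11. *cyp-33C9*, alone at 3091815 to 3094501 of chromosome V, had 33.5, 19.2 and 28.5 CPM in double mutants, 11.1, 9.02 and 10.5 CPM in *gsr-1a*, 9.17, 11.7 and 11.7 CPM in *trxr-2*, and 8.92, 9.91 and 9.94 CPM in wild type. Here too every double-mutant library was above every other one, with a log2 fold change of 1.5 ± 0.20 (adjusted p = 0.00097). *cyp-33C4* was a smaller case with 8.62, 7.53 and 7.80 CPM in double mutants, 3.13, 3.98 and 3.30 CPM in *gsr-1a*, 5.49, 3.48 and 3.27 CPM in *trxr-2*, and 5.08, 3.92 and 3.26 CPM in wild type. Its groups did not overlap either, and its log2 fold change was 0.97 ± 0.24 (adjusted p = 0.0145), but leaving out wild-type replicate 2 or 3 ended the call (adjusted p = 0.0543 and 0.0592). The other 4 tested 33C genes had log2 fold changes of -0.52 to 0.63, none called.

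*cyp-33E2* encodes an enzyme that makes eicosanoids, signalling molecules derived from polyunsaturated fatty acids. It had 23.2, 24.4 and 25.2 CPM in double mutants, 7.75, 6.95 and 6.71 CPM in *gsr-1a*, 13.2, 4.73 and 4.64 CPM in *trxr-2*, and 12, 7.84 and 6.38 CPM in wild type. The double mutants were uniform and above all 9 other libraries, while the replicate 1 libraries of *trxr-2* and wild type were the highest of their strains. The log2 fold change was 1.48 ± 0.36 (adjusted p = 0.0140), and leaving out wild-type replicate 2 or 3 ended the call (adjusted p = 0.0551 and 0.0544). *cyp-33E1* and *cyp-33E3*, the other genes of that subfamily, had log2 fold changes of -0.18 and 0.19 and were not called, although *cyp-33E3* adjoins *cyp-33E2* on chromosome IV. *cyp-33A1*, *cyp-33D1* and *cyp-33D3* were not called either. *cyp-29A3*, another eicosanoid-forming P450, had mean levels of 5.51 ± 1.20 CPM in double mutants, 3.77 ± 0.71 CPM in *gsr-1a*, 5.68 ± 0.81 CPM in *trxr-2* and 5.49 ± 0.73 CPM in wild type (SD, n = 3 each). Its log2 fold change between double mutants and wild type was 0.0004 ± 0.22.

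In the 13A subfamily, 2 of 8 tested genes were higher and 1 was lower, where 12.5% of all tested genes were higher and 6.3% lower. *cyp-13A12*, whose product oxygenates polyunsaturated fatty acids and takes part in the behavioural response to reoxygenation, lies at 13024547 to 13028012 of chromosome III. It had 13.9, 11.8 and 13.7 CPM in double mutants, 1.65, 1.38 and 0.852 CPM in *gsr-1a*, 1.73, 1.31 and 0.682 CPM in *trxr-2*, and 1.38, 0.871 and 0.682 CPM in wild type. The double-mutant values stood about an order of magnitude above the rest, and the log2 fold change was 3.77 ± 0.35 (13.6-fold, adjusted p = 9.7e-05). *cyp-13A8* had 5.39, 1.46 and 5.31 CPM in double mutants, 0.261, 0.690 and 0.320 CPM in *gsr-1a*, 0.601, 0.460 and 0.341 CPM in *trxr-2*, and 1.45, 0.653 and 0.341 CPM in wild type. Double-mutant replicate 2 was barely above wild-type replicate 1, while replicates 1 and 3 were well above all other strains. The log2 fold change was 2.36 ± 0.57 (adjusted p = 0.0142), and leaving out double-mutant replicate 1 or 3 or wild-type replicate 2 or 3 gave adjusted p-values of 0.0518, 0.0563, 0.0578 and 0.0530. *cyp-13A4* moved the other way, with 0.526, 1.19 and 0.852 CPM in double mutants, 1.65, 3.5 and 2.02 CPM in *gsr-1a*, 2.10, 1.58 and 1.64 CPM in *trxr-2*, and 3.26, 3.21 and 2.44 CPM in wild type. Every double-mutant library was below every other library, and its level fell by 1.76 ± 0.35 in log2 units (adjusted p = 0.0057). Among the members of the subfamily that were not called, *cyp-13A5* had the highest level, 15.4 CPM in double mutants and 9.12 CPM in wild type.

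Both genes of 13B, on chromosome X, were lower in double mutants, where 6.3% of all tested genes were lower. *cyp-13B1* had 1.25, 2.27 and 1.18 CPM in double mutants, 2.35, 3.40 and 3.25 CPM in *gsr-1a*, 4.74, 2.56 and 2.25 CPM in *trxr-2*, and 3.48, 5.61 and 6.92 CPM in wild type. The double mutants were below wild type without overlap, with *gsr-1a* between them without overlap and *trxr-2* overlapping both. This is a fall by 1.76 ± 0.37 in log2 units (adjusted p = 0.0077). *cyp-13B2* had 4.61, 5.52 and 4.26 CPM in double mutants, 6.79, 8.01 and 8.89 CPM in *gsr-1a*, 6.99, 7.49 and 8.25 CPM in *trxr-2*, and 8.05, 6.75 and 8.67 CPM in wild type. Only the double mutants departed from the common range here, and the gene fell by 0.70 ± 0.18 (adjusted p = 0.0179). Leaving out double-mutant replicate 1 or 3 or wild-type replicate 3 ended that call (adjusted p = 0.0719, 0.0907 and 0.0638).

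*cyp-32B1*, within a group of P450 genes on chromosome V, was the least stable of the higher members. It had 6.12, 4.55 and 6.49 CPM in double mutants, 0.871, 2.39 and 1.65 CPM in *gsr-1a*, 5.56, 0.525 and 1.02 CPM in *trxr-2*, and 1.23, 1.52 and 1.07 CPM in wild type. *trxr-2* replicate 1 thus reached the level of the double mutants while the other *trxr-2* libraries did not. The log2 fold change against wild type was 2.16 ± 0.65 (adjusted p = 0.0375). The call was lost without wild-type replicate 1, 2 or 3 (adjusted p = 0.0862, 0.0812 and 0.104) and without double-mutant replicate 1 or 3 (adjusted p = 0.0842 and 0.0980).

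Family 35, whose 35A genes respond to xenobiotics and take part in fat storage, had no member that was higher and 2 that were lower among 7 tested. Over all tested genes 12.5% were higher and 6.3% lower, so with 7 genes the absence of a higher one says little. *cyp-35C1* had 8.55, 14.2 and 12.4 CPM in double mutants, 21.7, 30.2 and 30.6 CPM in *gsr-1a*, 28.9, 22.5 and 19.2 CPM in *trxr-2*, and 36.8, 25.8 and 24.9 CPM in wild type. The double-mutant libraries were the lowest 3 of 12, and its level fell by 1.31 ± 0.24 in log2 units (adjusted p = 0.0037). *cyp-35A5* had 2.24, 1.68 and 1.64 CPM in double mutants, 6.53, 5.09 and 5.33 CPM in *gsr-1a*, 5.71, 4.73 and 3.68 CPM in *trxr-2*, and 7.11, 4.57 and 5.12 CPM in wild type. It fell by 1.59 ± 0.25 (adjusted p = 0.0022), again with no overlap between double mutants and any other strain. *cyp-35A2*, the most abundant gene of the family, had 40.9, 56.1 and 61.4 CPM in double mutants, means of 73.9 ± 22.4 CPM in *gsr-1a* and 78.6 ± 30.1 CPM in *trxr-2*, and 124.1, 88.8 and 63.9 CPM in wild type. All double-mutant values were below the lowest wild-type value, but wild-type libraries differed widely and the log2 fold change of -0.80 ± 0.32 was not called (adjusted p = 0.0989). *cyp-35A3* averaged 9.59 ± 2.97 CPM in double mutants and 15.3 ± 8.75 CPM in wild type, and *cyp-35A4* averaged 4.48 ± 1.96 CPM in double mutants and 2.66 ± 0.81 CPM in wild type, with adjusted p-values of 0.341 and 0.218. *cyp-35B1*, a known target of the transcription factor DAF-16, was near 1 CPM in each strain (0.885 ± 0.35 CPM in double mutants and 0.948 ± 0.02 CPM in wild type, adjusted p = 0.853). *cyp-35D1* was called only against the averaged single mutants (log2 fold change -1.09, adjusted p = 0.0386), with 1.18, 0.650 and 1.18 CPM in double mutants, 2.61, 2.33 and 1.49 CPM in *gsr-1a*, 1.88, 2.76 and 1.71 CPM in *trxr-2*, and 1.45, 2.5 and 1.80 CPM in wild type. This call was lost under 8 of 16 alternatives, among them the replicate block (adjusted p = 0.055) and the fit of only the strains compared (adjusted p = 0.0544). *cyp-35A1*, with 19 counts over all 12 libraries, was not tested.

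*cyp-25A1*, at 3832591 to 3834522 of chromosome III, was the member with the largest fall. It had 3.09, 3.09 and 3.02 CPM in double mutants, 3.66, 4.56 and 5.75 CPM in *gsr-1a*, 8.87, 5.39 and 8.39 CPM in *trxr-2*, and 14.4, 9.37 and 8.28 CPM in wild type. The strains were ordered with double mutants lowest, then *gsr-1a*, *trxr-2* and wild type, where *trxr-2* overlapped both *gsr-1a* and wild type, and *gsr-1a* lay below wild type without overlap. The gene fell by 1.80 ± 0.27 on the log2 scale in double mutants (adjusted p = 0.0019), whereas the difference of -1.18 ± 0.26 in *gsr-1a* did not pass (edgeR adjusted p = 0.504). The other 3 tested 25A genes had log2 fold changes of -0.92 to -0.41 in *gsr-1a* and -0.60 to 0.10 in double mutants, none called. *cyp-29A2* had 7.5, 11.0 and 6.95 CPM in double mutants, 7.49, 10 and 10.1 CPM in *gsr-1a*, 11.3, 10.7 and 12 CPM in *trxr-2*, and 14.3, 12.4 and 14.4 CPM in wild type. Wild type was the highest strain without overlap, and the gene fell by 0.69 ± 0.19 in double mutants (adjusted p = 0.0281). This call did not pass in a fit of only the strains compared (adjusted p = 0.0567), without double-mutant replicate 1 or 3 (adjusted p = 0.112 and 0.132), without wild-type replicate 1 or 3 (adjusted p = 0.0682 and 0.0749), or without all libraries numbered 1 (adjusted p = 0.0742).

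The 31A genes, whose products are needed in the embryo for the eggshell permeability barrier and for polarity, were among the most abundant P450 transcripts. *cyp-31A2* ranked first per kilobase of exon in wild type at 76.9 CPM and second in double mutants at 61.1 CPM. In CPM not divided by length it had 103.8, 96.4 and 98.6 in double mutants, 123.0, 120.6 and 120.1 in *gsr-1a* libraries, 114.0, 114.7 and 123.0 in *trxr-2* libraries, and 145.4, 117.5 and 113.3 in wild type. The double mutants were the lowest strain without overlap, yet the difference of -0.33 ± 0.11 on the log2 scale missed the threshold (adjusted p = 0.0558). *cyp-31A5* had 57.6, 56.4 and 51.7 CPM in double mutants, 77.1, 63.7 and 72.2 CPM in *gsr-1a*, 60.9, 58.7 and 67.0 CPM in *trxr-2*, and 86, 65.5 and 67.2 CPM in wild type, and fell by 0.40 ± 0.13 (adjusted p = 0.0448). It was the weakest call of the set and was lost under 7 of 13 alternatives, among them 5 that left out 1 library each (double-mutant replicate 1, 2 or 3, or wild-type replicate 1 or 3, adjusted p = 0.0886, 0.0857, 0.157, 0.123 and 0.0527). *cyp-31A3* had 62.9 ± 0.93 CPM in double mutants, 75.7 ± 1.87 CPM in *gsr-1a*, 74.4 ± 5.33 CPM in *trxr-2* and 70.5 ± 2.34 CPM in wild type, a difference of -0.17 ± 0.09 that was not called (adjusted p = 0.217). In all 3 genes the double-mutant libraries were below all 9 others. This held for 9 of the 60 tested members in all, and the share over all tested genes was not computed. Against wild type alone, double mutants were lower without overlap for 25% of tested members and 21.6% of all tested genes. *cyp-31A2* and *cyp-31A3* are close in sequence and can share reads, and read pairs that aligned to several places were not counted.

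Members with other known roles were not called. *cyp-44A1*, a P450 of the mitochondrial type, had 50.8 ± 1.80 CPM in double mutants, 55.5 ± 1.75 CPM in *gsr-1a*, 50.4 ± 1.45 CPM in *trxr-2* and 58.3 ± 4.41 CPM in wild type. The log2 difference between double mutants and wild type was -0.20 ± 0.09 (adjusted p = 0.161), and 246 bases of the gene overlap *npp-24* on the same strand. *cyp-36A1*, which acts downstream of EGL-9 and HIF-1 in the response to hydrogen sulphide and oxygen, had 11.3 ± 2.03 CPM in double mutants and 10.2 ± 1.46 CPM in wild type (adjusted p = 0.595). *cyp-37A1* had 9.36 ± 1.40 CPM in double mutants and 10.1 ± 0.52 CPM in wild type (adjusted p = 0.645). None of the 6 tested 34A genes was called (18.8% of all tested genes were), and their log2 fold changes lay between -0.18 and 0.62. *cyp-34A8* was the most abundant of them, with 38.2 ± 6.63 CPM in double mutants and 43.2 ± 9.19 CPM in wild type. The single members of 23A, 32A, 33A, 36A, 37A, 42A, 43A and 44A had log2 fold changes between -0.45 and 0.15.

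**Figure D2:**
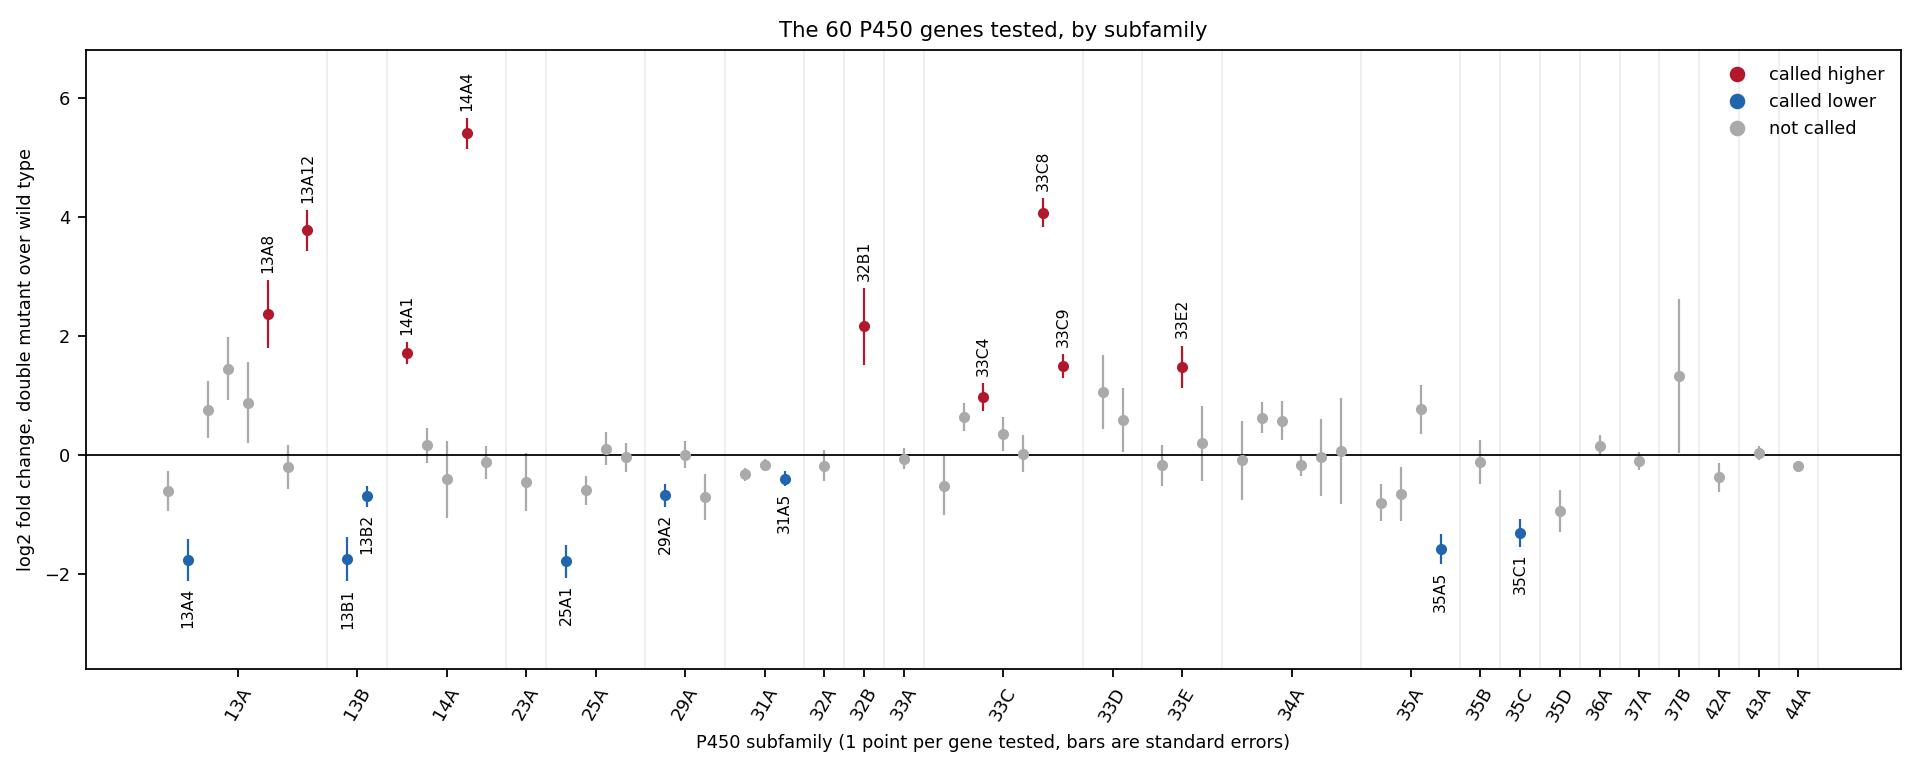
Log2 fold change of each tested P450 gene between double mutants and wild type, grouped by subfamily, with bars of 1 SE, in red for genes called higher, blue for genes called lower and grey for the rest. Called genes of 14A, 32B, 33C and 33E lie above 0 only, those of 13B, 25A, 29A, 31A, 35A and 35C below 0 only, and 13A holds both, from -1.76 for *cyp-13A4* to 3.77 for *cyp-13A12*.

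The sum of all P450 transcripts was 987.9, 831.8 and 998.8 CPM in double mutants, with means of 709.9 ± 54.9 CPM in *gsr-1a* and 741.8 ± 113.1 CPM in *trxr-2*, and 915.4, 742.9 and 694.5 CPM in wild type (SD, n = 3). Wild-type replicate 1 lay within the range of the double mutants. *cyp-33C8* alone made up 24.3 ± 5.93% of the sum in double mutants, 2.35 ± 0.15% of it in *gsr-1a*, 2.25 ± 0.29% of it in *trxr-2* and 1.78 ± 0.40% in wild type. Without that gene the sums were 708.1 ± 36.1 CPM in double mutants, 693.3 ± 54 CPM in *gsr-1a*, 725.2 ± 112.7 CPM in *trxr-2* and 770.4 ± 115.3 CPM in wild type, so the 4 strains overlapped. The 31A genes together made up 23.3 ± 2.46% of the sum in double mutants and 34.4 ± 1.31% in wild type. In counts, P450 genes held 0.0582% to 0.104% of a library.

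**Figure D3:**
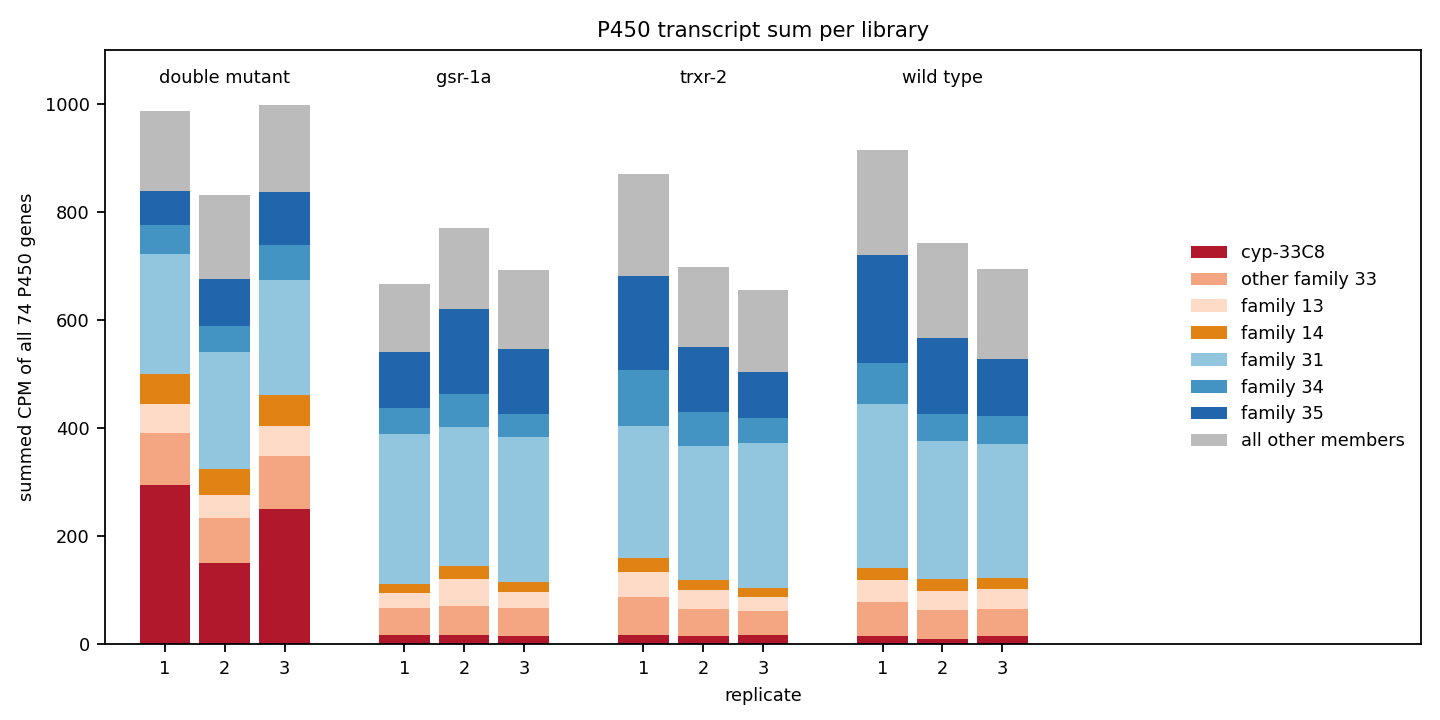
Sum of the CPM of all 74 P450 genes in each of the 12 libraries, split into *cyp-33C8*, the other genes of family 33, families 13, 14, 31, 34 and 35 and all other members, with double mutants at the left and wild type at the right. The *cyp-33C8* part is 150.0 to 294.6 CPM in double mutants and at most 17.9 CPM in any other library.

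The 60 tested members were also ranked by level per kilobase of exon. *cyp-31A2*, *cyp-35A2*, *cyp-31A5*, *cyp-31A3*, *cyp-44A1* and *cyp-34A8* held ranks 1 to 6 in wild type, and all 6 were within the first 7 in double mutants, after *cyp-33C8*. *cyp-33C9* ranked 8 in double mutants and 17 in wild type, *cyp-14A1* 9 in double mutants and 23 in wild type, and *cyp-33E2* 10 in double mutants and 22 in wild type. The longest move up was that of *cyp-14A4*, at 10.7 CPM per kilobase and rank 11 in double mutants and 0.25 CPM per kilobase and rank 59 in wild type. *cyp-13A12* followed, with rank 17 in double mutants and 52 in wild type. Among those that fell, *cyp-25A1* ranked 38 in double mutants and 15 in wild type. In CPM not divided by length, 17 members averaged 10 or more in wild type, 30 averaged 1 to 10 and 27 averaged less than 1.

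No P450 gene was called in either single mutant against wild type. In *gsr-1a* 0.0267% of all tested genes were called, 0.02% higher and 0.00666% lower, and the smallest adjusted p over the members was 0.504. An unadjusted p under 0.05 was reached by 7 members there, all lower (11.7% of those tested, against 8.26% of all genes), and DESeq2 called 1 of them, *cyp-25A1*. In *trxr-2* 0.0666% of all tested genes were called, 0.0333% higher and 0.0333% lower, and the smallest adjusted p over the members was 0.836. An unadjusted p under 0.05 was reached by 3 members (5% of those tested, against 5.85% of all genes), and DESeq2 called none. The interaction, which tests whether the effect of *trxr-2* loss differs between the *gsr-1a* background and the background with intact *gsr-1*, was called for 4 members, all on the higher side (6.67%, against 0.726% of all tested genes on that side, 0.04% on the lower side and 0.766% in all). These were *cyp-14A4* (4.92 ± 0.43 on the log2 scale, adjusted p = 0.00016), *cyp-33C8* (3.54 ± 0.32, adjusted p = 0.00019), *cyp-14A1* (1.98 ± 0.26, adjusted p = 0.0039) and *cyp-13A12* (2.99 ± 0.51, adjusted p = 0.0198). *cyp-14A4* passed the filter only through its level in double mutants, so its place in this count is not independent of that level. For *cyp-14A4* the mean level with the *trxr-2* mutation differed from that without it by 5.03 log2 units in the *gsr-1a* background and by 0.03 with intact *gsr-1*. For *cyp-33C8* these differences were 3.80 in the *gsr-1a* background and 0.26 with intact *gsr-1*, for *cyp-13A12* 3.34 and 0.35, and for *cyp-14A1* 1.78 and -0.20. The interaction of *cyp-13A12* was lost without wild-type replicate 2, *gsr-1a* replicate 2 or 3, or double-mutant replicate 3 (adjusted p = 0.0519, 0.0593, 0.0602 and 0.0515). For *cyp-13A8*, *cyp-33C9*, *cyp-33E2* and *cyp-33C4* the interaction did not pass (adjusted p = 0.0880, 0.0766, 0.113 and 0.155), and it did not pass for any member that was lower.

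Compared with the averaged single mutants, the double mutants had 8 members higher (13.3%, against 11.7% of all tested genes) and 6 lower (10%, against 1.61%). At an unadjusted p under 0.05 there were 12 higher and 10 lower members, against 24.1% of all tested genes in either direction. This comparison uses the same double-mutant libraries as the one against wild type. The log2 fold changes of the higher genes were 5.16 for *cyp-14A4*, 3.80 for *cyp-33C8*, 3.38 for *cyp-13A12*, 3.14 for *cyp-13A8*, 1.85 for *cyp-14A1*, 1.73 for *cyp-33E2*, 1.36 for *cyp-33C9* and 1.08 for *cyp-33C4*. *cyp-32B1* was not called here (1.52, adjusted p = 0.0797). The lower genes were *cyp-35A5* (-1.47), *cyp-13A4* (-1.25), *cyp-35C1* (-1.12), *cyp-35D1* (-1.09), *cyp-25A1* (-0.95) and *cyp-13B2* (-0.69). Without double-mutant replicate 1 or 3 only 2 lower calls were left, with *cyp-13A4*, *cyp-25A1*, *cyp-13B2* and *cyp-35D1* among those lost, and without *trxr-2* replicate 1 there were 12 higher and 7 lower.

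**Figure D4:**
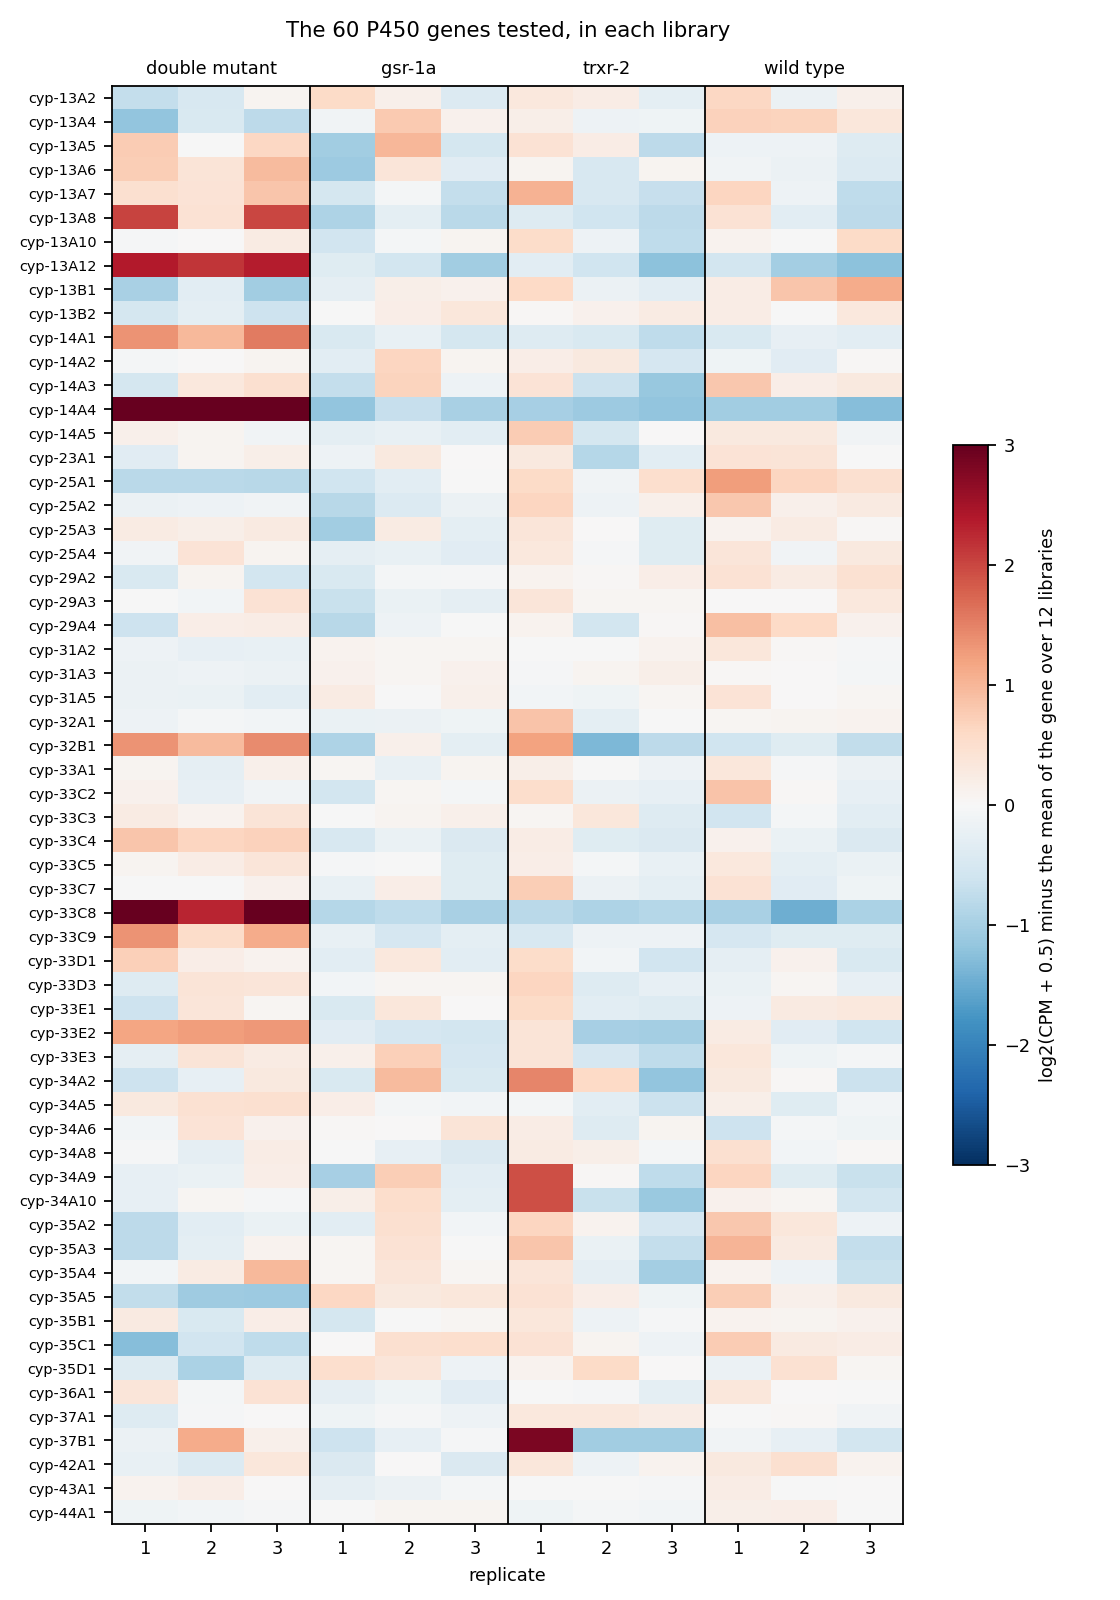
Level of the 60 tested P450 genes in the 12 libraries as log2(CPM + 0.5) minus the mean of the gene, with double mutants in the left columns, then *gsr-1a*, *trxr-2* and wild type, and with colours that stop at 3 in either direction. *cyp-14A4*, *cyp-33C8* and *cyp-13A12* are high in all 3 double-mutant columns, and the column of *trxr-2* replicate 1 differs from its neighbours over many genes.

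Called P450 genes often stood beside members that were not called. Most tested members were uncalled (9 of 60 were higher and 8 lower) and only 18.8% of all tested genes were called, so uncalled neighbours are common anyway. Of the 74 genes, 41 lie on chromosome V, 12 on II, 7 each on IV and X, 6 on III and 1 on I, and 45 stand in 11 groups with gaps of at most 20 kb between neighbours. The 13A group on chromosome II, from 9779182 to 9807532, holds 8 genes in 28.4 kb. Within it *cyp-13A8* was higher, *cyp-13A4* was lower, and *cyp-13A2*, *cyp-13A5*, *cyp-13A6* and *cyp-13A7* were not called, with log2 fold changes of -0.61, 0.76, 1.45 and 0.88. The 14A group on X, from 13265041 to 13284204, has called genes at both ends and uncalled *cyp-14A2* and *cyp-14A3* between them. In the 33C group on V, from 2236162 to 2252553, only *cyp-33C4* was called, and the uncalled *cyp-33C3*, *cyp-33C5* and *cyp-33C7* had log2 fold changes of 0.63, 0.35 and 0.02. A group of 10 genes of 34A, 35A and 35B at 3936326 to 3973001 of V had 1 called gene, *cyp-35A5*, among 7 tested. The 4 genes of the 25A group on III, from 3832591 to 3852076, included only *cyp-25A1* as called. *cyp-33C8*, *cyp-33C9* and *cyp-35C1* had no P450 neighbour within that gap.

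**Figure D5:**
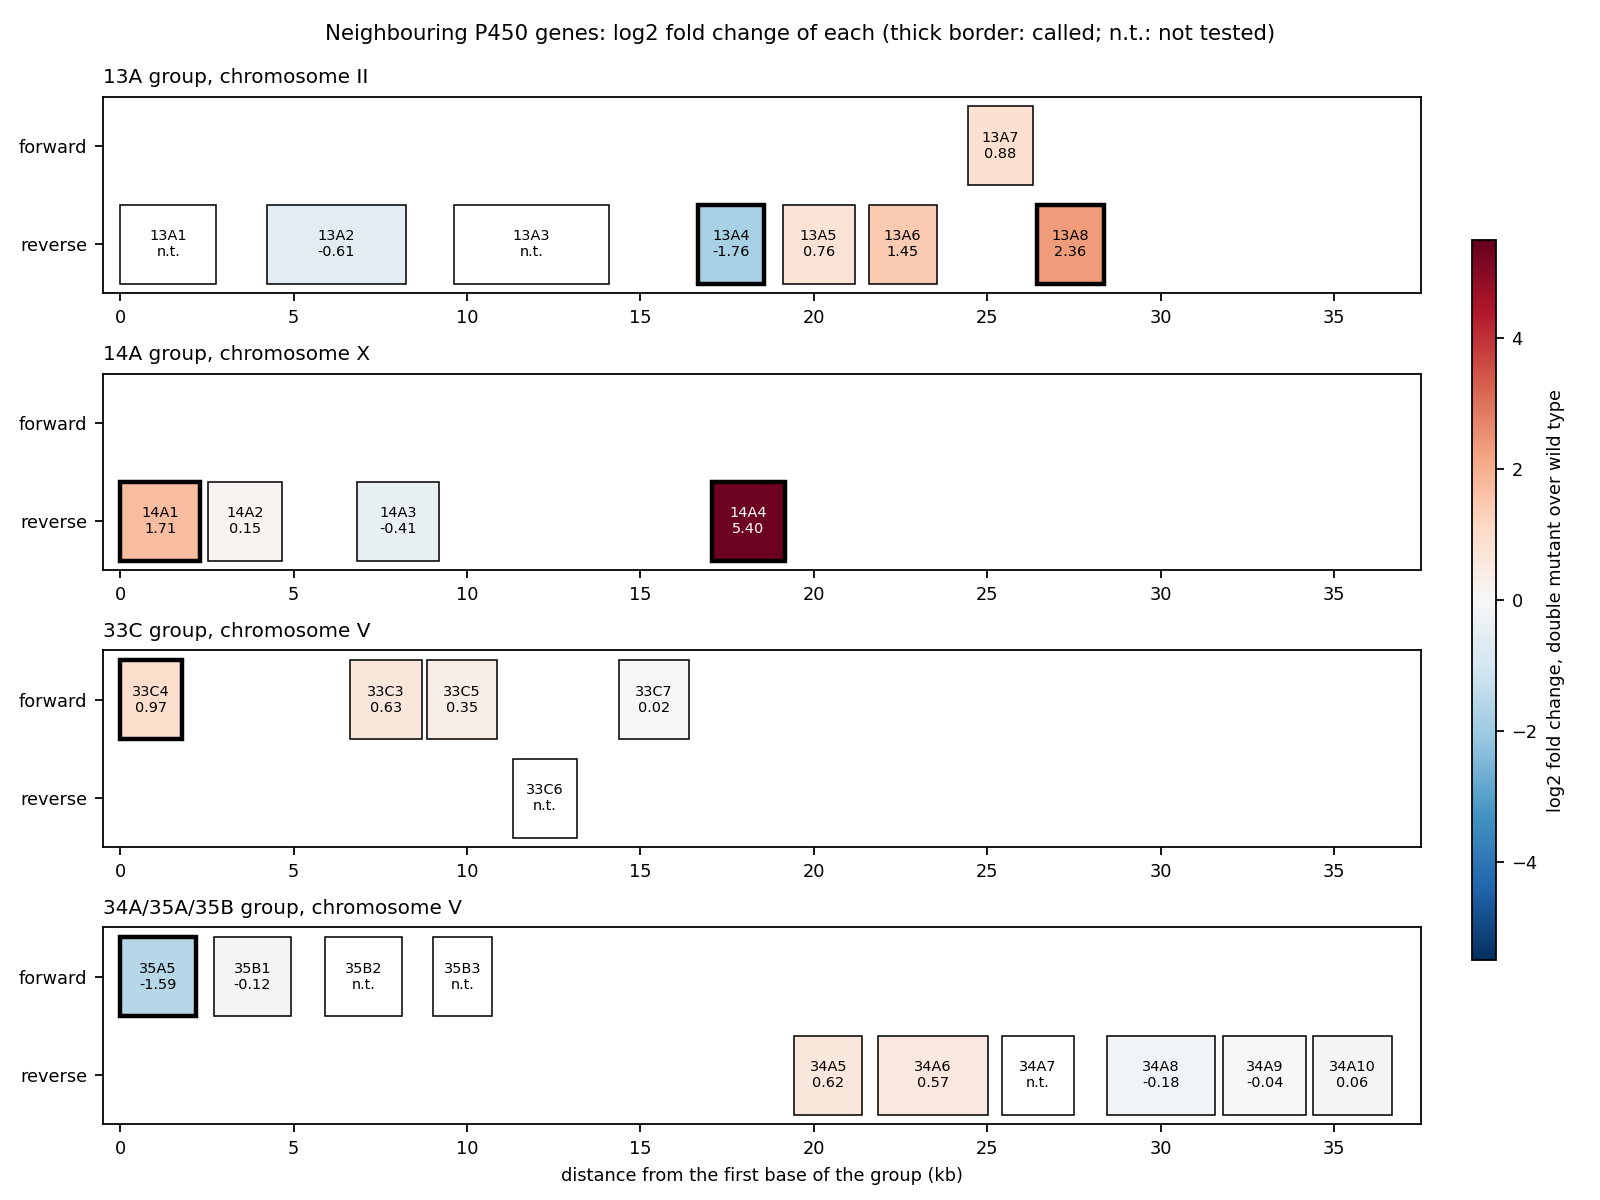
Map of 4 groups of neighbouring P450 genes, with the distance from the first base of the group in kb and the strand of each gene. Colours and printed values are log2 fold changes between double mutants and wild type, thick borders mark called genes and n.t. marks untested ones. Called genes such as *cyp-13A8* (2.36), *cyp-13A4* (-1.76), *cyp-14A4* (5.40) and *cyp-35A5* (-1.59) adjoin genes that were not called.

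Genes that serve or regulate P450 enzymes were compared between double mutants and wild type as well. None of 4 electron donors was called (median log2 fold change -0.10, against 0.03 over all tested genes). Over all tested genes 12.5% were higher and 6.3% lower, so no call in lists this short says little. *emb-8*, the P450 reductase, had 295.0, 258.2 and 300.5 CPM in double mutants and 134.6, 214.1 and 199.6 CPM in wild type. These values did not overlap, but the log2 fold change of 0.64 ± 0.21 just missed the threshold (adjusted p = 0.052). Neither the 2 mitochondrial donors nor the 5 tested genes around the hormone-forming P450 *daf-9* were called. *daf-9* itself had 1.89 CPM in double mutants and 1.53 CPM in wild type.

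Haem, the cofactor of P450 enzymes, is taken up and distributed in worms by the HRG proteins, and 3 of 6 tested genes of that list of 8 were higher in double mutants, where 12.5% of all tested genes were higher and 6.3% lower. *hrg-7*, which encodes an aspartic-protease-like signal of haem status, had 280.9, 138.1 and 225.0 CPM in double mutants, 71.5, 55.9 and 52.2 CPM in *gsr-1a*, 51.5, 54.9 and 46.2 CPM in *trxr-2*, and 51.3, 49.8 and 50.8 CPM in wild type. All double-mutant libraries were above the other 9, with a log2 fold change of 2.08 ± 0.22 (adjusted p = 0.00026) and an interaction of 1.84 (adjusted p = 0.0172). *hrg-1*, a haem transporter, had 49.2, 16.7 and 30.95 CPM in double mutants and 10.3, 12.1 and 13.5 CPM in wild type (log2 fold change 1.43 ± 0.30, adjusted p = 0.0079), and *hrg-9* had 7.17, 7.47 and 6.03 CPM in double mutants and 2.68, 2.12 and 2 CPM in wild type (1.61 ± 0.20, adjusted p = 0.00065). Among 19 regulators, *nhr-8*, a nuclear receptor of xenobiotic and sterol responses, was higher with 24.7, 29.1 and 23.2 CPM in double mutants and 17.6, 14.4 and 14.2 CPM in wild type (0.74 ± 0.18, adjusted p = 0.0161). *pmk-1*, a p38 kinase of stress and immune signalling, was lower with 19, 19.3 and 17.4 CPM in double mutants and 27.1, 24.7 and 25.2 CPM in wild type (-0.47 ± 0.13, adjusted p = 0.0305). The other 17 regulators, among them *skn-1*, *hif-1*, *ahr-1*, *nhr-49*, *mdt-15*, *daf-16* and *atfs-1*, were not called, and no gene of these lists was called in a single mutant. For each of those named, wild-type replicate 1 was the lowest of its strain. In wild type *skn-1* had 95.3, 246.6 and 236.4 CPM and *hif-1* had 66.6, 171.2 and 163.0 CPM. The same library was the highest of its strain for *aha-1*, *elt-2* and *nhr-86*, and these lists were not fitted without it.

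Some markers of tissues differed between double mutants and wild type too, a comparison where 12.5% of all tested genes were higher and 6.3% lower. Of 10 intestinal markers 4 were higher (*ges-1*, *ifb-2*, *vha-6* and *asp-1*) and 1 was lower (*cpr-6*), and their summed level was 4540 to 4800 CPM in double mutants, 3260 to 4110 CPM in *gsr-1a*, 2880 to 3860 CPM in *trxr-2* and 2560 to 3460 CPM in wild type. All 6 tested sperm markers of 7 were higher. Their sums were 101 to 219 CPM in double mutants, 57 to 102 CPM in *gsr-1a*, 22.2 to 56.1 CPM in *trxr-2* and 25 to 45.3 CPM in wild type. Of 6 yolk markers none was called against wild type, with sums of 34500 to 41000 CPM in double mutants and 3000 to 46100 CPM in wild type. Wild-type replicate 1 was the lowest of its strain for all 6, and the lists were not fitted without it. The log2 fold changes against wild type ranged from -1.92 for *vit-3* to 0.86 for *vit-6*. *vit-3* had 364.4, 639.2 and 581.3 CPM in double mutants and 262.4, 2940 and 2789 CPM in wild type. Against the averaged single mutants it was called lower (-2.42 ± 0.69, adjusted p = 0.0367). No oocyte, germline or muscle marker was called. For all of these except *him-3* and *pat-10*, wild-type replicate 1 was again the lowest of its strain, as with *myo-3* (6.96, 81.7 and 93.6 CPM in wild type). In addition 1 of 6 hypodermal markers, 1 of 5 tested neuronal markers and 1 of 2 male markers were higher, and 1 of 5 tested embryonic markers was lower. *unc-17* (neurons) and *msp-31* (sperm) were at 0 in every library, while the other neuronal and sperm markers and the intestinal and yolk markers were present in all 12. Read pairs that overlapped several genes or mapped to several places were not counted. A count of 0 for these 2 genes therefore need not mean absent RNA. The part of these shifts in the P450 results was not tested.

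The spread between replicates was described by the ratio of the highest to the lowest library of a strain. Taking the members with a mean of at least 1 CPM, the highest library exceeded the lowest by more than 2-fold for 7 of 52 members in double mutants, 10 of 48 members in *gsr-1a*, 18 of 50 members in *trxr-2* and 4 of 47 members in wild type. The median ratio of highest to lowest was 1.42 for double mutants, 1.39 for *gsr-1a*, 1.71 for *trxr-2* and 1.45 for wild type. *trxr-2* replicate 1 was the highest of its strain at 49 of 60 members (81.7%, against 52.2% of all tested genes), and wild-type replicate 1 at 36 (60%, against 43.7%). The extreme was *cyp-37B1*, with 7.74, 0.0657 and 0.0682 CPM in *trxr-2*, 0.526, 2 and 0.787 CPM in double mutants and 0.580, 0.490 and 0.292 CPM in wild type. *cyp-34A10* had 5.34, 0.460 and 0.205 CPM and *cyp-34A9* 39.9, 10.4 and 5.73 CPM in *trxr-2*. For these genes a single library set the mean of the *trxr-2* strain, and none of them was called in any of the 5 comparisons with all libraries. Without *trxr-2* replicate 1, *cyp-37B1* was called higher in double mutants against the averaged single mutants, and without all libraries numbered 1 it was called higher against wild type as well. Among double mutants, replicate 2 was the lowest for every member called higher except *cyp-33E2*. It was the highest for *cyp-13A4*, *cyp-13B1*, *cyp-13B2*, *cyp-29A2* and *cyp-35C1*, but not for *cyp-25A1*, *cyp-35A5* or *cyp-31A5*. The fit without this library had 9 members higher and 7 lower against wild type.

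The 14 members that were not tested held 2 to 76 counts each over all 12 libraries and at most 16 in 1 library. They were *cyp-13A1*, *cyp-13A3*, *cyp-13A11*, *cyp-25A6*, *cyp-33B1*, *cyp-33C1*, *cyp-33C6*, *cyp-33C11*, *cyp-33C12*, *cyp-34A1*, *cyp-34A7*, *cyp-35A1*, *cyp-35B2* and *cyp-35B3*. Outside the main fit, the alternative without a filter on low counts called none of them. At counts this low a difference can go unseen. *cyp-14A4*, *cyp-33D1* and *cyp-33D3* passed the filter only because of their counts in double mutants.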

How the data were processed

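RNA-seq libraries of 4 strains, 3 per strain, were grouped by the strain and replicate number in the submitters' labels. The authors deposited 1 table of counts per library, unnormalized, with the number of read pairs assigned to each gene. According to the submitters' processing notes FastQC 011.9, HISAT2, SAMtools and featureCounts 2.0.0 were used with the build WBcel235. Per the file headers, pairs were assigned by strand to genes of Ensembl release 97 from start to end, so intron reads count, and pairs that mapped to several places or overlapped several genes were not counted, which lowers the counts of close paralogs. The study describes its RNA-seq replicates as biological.

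Symbols were found for 93.8% of 46904 genes. From the counts, TMM scaling factors were computed (edgeR 4.0.16 under R 4.3.3), genes were filtered by filterByExpr with the strain as group, and all 12 libraries were fitted with 1 mean per strain and 8 residual degrees of freedom. Differences were tested by quasi-likelihood, two-sided, with Benjamini-Hochberg adjustment over 15004 genes and a threshold of 0.05, in 5 comparisons. An SE is the log2 fold change divided by the square root of F. Levels per kilobase used exon lengths of Ensembl release 115. The fit was tested on simulated data. Same-numbered libraries were checked for pairing by the correlation of their deviations from the strain means. Against wild type it was 0.101 to 0.273 for *gsr-1a*, 0.374 to 0.644 for *trxr-2* and 0.016 to 0.193 for double mutants. The highest of these, 0.644, came from the replicate 1 libraries of *trxr-2* and wild type, which stand apart in yolk genes. The ranges of *gsr-1a* and double mutants overlap, and the labels do not say whether equal numbers mark a shared experiment. The main fit therefore treats the libraries as unpaired, and a replicate block is used only as an alternative. Alternatives were DESeq2 1.42.0, RLE scaling, other filters, a replicate block, a fit of the compared strains only, leaving out libraries and a minimum fold of 2.

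The members and all gene lists were chosen with earlier results of these data known. Named with values are all members called in any comparison and a fixed set with known roles. Other members were named after their values were seen, as partners or neighbours of these or for their spread. Library totals (12114187 to 19688212 pairs) set the precision. Promoter sequences were not used here.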

Additional observations from a re-analysis of the deposited data

Results flagged for a closer look

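For 4 P450 genes the effect of the *trxr-2* mutation differed between the *gsr-1a* background and the background with intact *gsr-1*, by the interaction test of edgeR. The difference between both effects was 4.92 on the log2 scale for *cyp-14A4*, 3.54 for *cyp-33C8*, 2.99 for *cyp-13A12* and 1.98 for *cyp-14A1*, with adjusted p-values of 0.00016, 0.00019, 0.0198 and 0.0039. *cyp-14A4* was tested only because its level in double mutants let it pass the filter. In each case all 3 double-mutant libraries were above the other 9. The same held for 10 of the 60 tested members in all, and the share over all tested genes was not computed. Against wild type alone, double mutants were higher without overlap for 21.7% of tested members and 23.9% of all tested genes.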

How the results depend on the processing

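Of the 17 members called between double mutants and wild type, 10 kept their call under all 13 alternatives of test, filter or samples (*cyp-14A4*, *cyp-33C8*, *cyp-13A12*, *cyp-14A1*, *cyp-33C9*, *cyp-25A1*, *cyp-13A4*, *cyp-13B1*, *cyp-35A5* and *cyp-35C1*), as did 3 of 4 interactions under 18 alternatives and 10 of 14 calls against the single mutants under 16. Leaving out 1 library gave 5 to 9 members higher and 5 to 8 lower against wild type, 8 to 12 higher and 2 to 7 lower against the single mutants, 3 to 6 interactions on the higher side, and 0 in either single mutant. DESeq2 called 1 lower member in *gsr-1a* (*cyp-25A1*), and for the interaction 8 on the higher side and 1 on the lower (*cyp-35A5*). A minimum fold of 2 left 5 lower members against wild type. Without all libraries numbered 1, 11 members were higher against wild type, *trxr-2* had 1 lower member (*cyp-13B1*) and the interaction 3 on the lower side (*cyp-31A3*, *cyp-35A5* and *cyp-35C1*). *cyp-31A2* was gained as lower against wild type by DESeq2, the replicate block, without wild-type replicate 3 and without all libraries numbered 1.

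The fit with a replicate block called 0 members in either single mutant, as did the fit without it, 9 members higher and 9 lower in double mutants against wild type, and 1 member (*cyp-35A5*) on the lower side of the interaction. The log2 fold changes of uncalled members were followed through the alternatives only in the fixed set with known roles. Of these, 4 turned their sign under some alternatives. *cyp-29A3* (0.0004) had -0.0093 with DESeq2, -0.0047 with RLE, -0.0025 without a filter, -0.016 with a minimum of 1 CPM, -0.003 with the replicate block, -0.020 in the fit of the compared strains, and -0.19 to 0.11 when 1 library was left out. Leaving out 1 library gave -0.18 to 0.0247 for *cyp-37A1*, -1.02 to -0.16 for *cyp-35A3* and -0.31 to 0.19 for *cyp-35B1*, and leaving out all libraries numbered 1 gave 0.0154, 0.0444 and -0.34 for these genes. The causes of these differences were not tested.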
